A study of Mus musculus with 6 samples.

Results

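The genes described here encode glycoproteins and small proteoglycans of the extracellular matrix. They were taken as a named list of 40 genes, and a gene was measured where a probe set of the array carried its symbol and no other. This held for 37 of the 40 genes, out of 19938 genes on the array, and each of the 37 had a single probe set. The list has 5 classes. There were 9 measured matricellular genes of 10 listed, 15 elastic fibre genes of 17, all 7 small leucine-rich proteoglycans, both hyaluronan-bound genes and all 4 adhesive and basement membrane genes. Spp1, Fbn1 and Efemp2 lacked a probe set naming them alone and were not analysed here.

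Fibroblasts build the matrix from collagen and elastic fibres, and the proteins of these classes sit on, between or under those fibres. Matricellular proteins are secreted into the matrix, where they act on cell adhesion and signalling more than on mechanical strength. Elastic fibres consist of elastin on a scaffold of fibrillin microfibrils, with fibulins, emilins and latent TGF-beta binding proteins attached. Small leucine-rich proteoglycans bind collagen fibrils and govern their thickness and spacing.

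RNA came from mouse embryonic fibroblasts (MEFs) of wild-type and H2AX mutant mice, hybridised to 3 Affymetrix Gene ST arrays per genotype. No treatment is named for the cells of these arrays. The mutant cells lack the histone variant H2AX and are called H2AX knockout, and both genotypes grew in the same serum-containing medium. A legend of the study calls the numbered samples of a genotype independent. Whether they were separate cultures or embryos, and whether the cells were a primary culture or a line, is not given in the sources used here, so that the p-values rest on the spread among these samples, part of which may be technical. Genotype and cell preparation cannot be told apart.

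H2ax, the targeted gene, had log2 values of 8.96, 9.18 and 9.0 on the wild-type arrays and of 7.69, 7.77 and 7.67 on the H2AX knockout arrays. The log2 fold change was -1.34 (SE, the standard error, 0.07, limma adjusted p = 5.8e-07), although where the probes lie relative to the deletion is not given in the sources used here. Array medians lay between 6.06 and 6.12, and arrays correlated at 0.9933 to 0.9968 within a genotype and at 0.9693 to 0.9743 between genotypes, across probe sets. Of 12 fibroblast markers, 7 rose and 4 fell at an adjusted p under 0.05 from limma, as did 18.4% and 15.0% of all genes. The summed linear value of these 12 markers was 25733 to 26343 on wild-type arrays and 30814 to 31178 on knockout arrays. Over 2-fold, Thy1 and Pdgfrb rose (log2 fold changes of 4.03 and 1.70), and Fap and Twist2 fell (-2.57 and -1.69). Fap values were 6.80 to 7.22 on wild-type and 4.38 to 4.54 on knockout arrays. The latter lay below the 25th percentile of gene means (4.98). Of 9 smooth muscle markers, 5 rose and none fell, with sums of 4734 to 4981 and of 9624 to 10139. Among them Actg2, Cnn1, Tagln and Acta2 had log2 fold changes of 2.77, 2.56, 2.35 and 0.84, and Myh11, a smooth muscle myosin, one of 0.05 (limma adjusted p = 0.67). Of 10 endothelial markers none rose and 2 fell (sums 375 to 391 and 350 to 378). Of 11 leukocyte markers 1 rose and 1 fell (sums 483 to 513 and 500 to 503). The sums of 3 other lists did not overlap between genotypes. They were 765 to 881 and 542 to 601 for 8 skeletal muscle markers (1 rose, and 1, Chrna1, fell by 3.28), 225 to 236 and 172 to 190 for 5 osteoblast markers (1, Phex, fell by 1.0), and 285 to 294 and 333 to 355 for 7 adipocyte markers (1, Pparg, rose by 1.07). Among 4 genes that differ between the sexes, the Y-linked Eif2s3y, Uty and Kdm5d fell, with log2 fold changes of -4.04, -3.73 and -2.88. Their knockout means of 4.05, 4.35 and 4.92 lay below the 25th percentile of gene means (4.98). Xist lay below it in both genotypes, with means of 4.53 and 4.56 and a log2 fold change of 0.03 (limma adjusted p = 0.80). The part of these differences in the results on matrix genes was not tested.

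Matrix genes moved in both directions. In H2AX knockout MEFs, 15 of the 37 measured genes rose and 12 fell at an adjusted p under 0.05 from limma, so that 27 (73.0%) changed, and 10 did not pass. Across all 19938 genes, 33.4% changed at this threshold, with 18.4% higher and 15.0% lower. With a fold change over 2 in addition, 8 matrix genes were higher and 7 were lower, against 2.12% and 3.18% of all genes (5.30% in either direction). The 3 wild-type and 3 knockout values did not overlap for 31 of the 37 genes, and for 44.8% of all genes. The median log2 fold change of the 37 genes was 0.12, beside 0.02 for all genes. Their median change regardless of direction was 0.70 on the log2 scale, beside 0.13 for all genes.

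The share of genes that changed was also larger among genes with high signals. Of the 37 matrix genes, 30 had a mean at or above that of the median gene, and 25 of these changed and 14 did so over 2-fold. Among the 9969 genes in that range, 53.1% changed and 8.60% did so over 2-fold. Of the 7 matrix genes below the median gene, 2 changed, namely Tnn and Prelp. A lower level of a transcript in such bulk RNA can come from fewer cells that make it or from less RNA per cell, and these cannot be told apart.

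**Figure D1:**
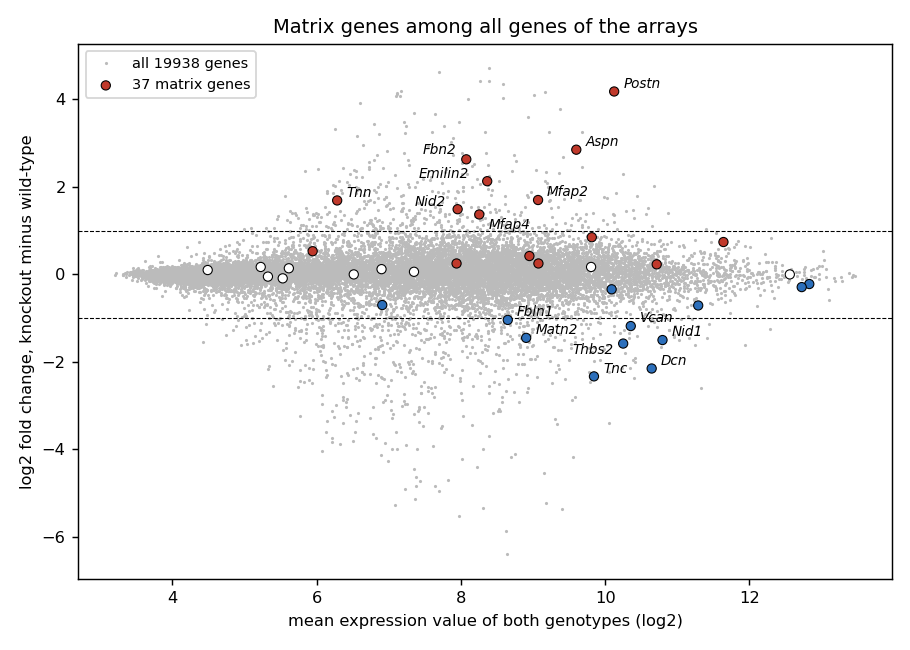
The log2 fold change (H2AX knockout minus wild-type) of each gene is plotted against its mean log2 expression value over the 6 arrays. Grey points are all 19938 genes, large points are the 37 matrix genes (red higher, blue lower, open not passed at an adjusted p under 0.05 from limma), and dashed lines mark a 2-fold change. Postn lies at the top with 4.18 and Tnc at the bottom of the matrix genes with -2.33.

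Among the matricellular genes, Postn and Tnn rose and Tnc and Thbs2 fell over 2-fold. In the class of 9, 3 genes rose, 3 fell and 3 did not pass, with a median log2 fold change of -0.05. The share that changed was 66.7%, beside 33.4% of all genes and 53.1% of genes at or above the median gene. Postn encodes periostin, which is secreted by fibroblasts and binds collagen and tenascin C. Its log2 values were 7.89, 8.07 and 8.15 on the wild-type arrays and 12.26, 12.12 and 12.26 on the H2AX knockout arrays. The knockout values all lay far above the wild-type values, and the spread within either genotype was small beside the difference. The log2 fold change was 4.18 (95% interval 3.99 to 4.36, limma adjusted p = 6.9e-10), an 18.1-fold rise and the largest among the 37 genes.

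The tenascins, large oligomeric glycoproteins of developing and healing tissue, did not move together. Tnc, which encodes tenascin C, had log2 values of 11.04, 11.08 and 10.92 in wild-type MEFs and of 8.57, 8.83 and 8.64 in H2AX knockout MEFs. It was lower on all knockout arrays, with a log2 fold change of -2.33 (95% interval -2.52 to -2.15, limma adjusted p = 2.4e-08), the largest fall among the 37 genes. Tnn, which encodes tenascin N (also called tenascin W), went the other way. Its values were 5.50, 5.39 and 5.42 in wild-type cells and 7.23, 6.98 and 7.18 in knockout cells, without overlap. The log2 fold change was 1.69 (SE 0.08, limma adjusted p = 1.4e-07). Tnxb, which encodes tenascin X, had a log2 fold change of -0.09 with a 95% interval of -0.31 to 0.12 (limma adjusted p = 0.51), and its wild-type and knockout arrays overlapped.

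Thrombospondins bind cell-surface receptors and calcium, and the trimeric members, Thbs1 and Thbs2, inhibit angiogenesis. Thbs2 gave log2 values of 11.02, 11.06 and 11.05 on wild-type and of 9.37, 9.54 and 9.48 on knockout arrays. Each knockout value was lower than each wild-type value, and the gene fell by 1.58 on the log2 scale (SE 0.07, limma adjusted p = 7.1e-08), a 2.99-fold difference. Thbs1 also fell, by 0.71 on the log2 scale (limma adjusted p = 1.8e-05), or 1.63-fold. The pentameric members gave smaller values. Thbs3 had a log2 fold change of 0.25 (limma adjusted p = 0.021), which was lost when the variance was not moderated (adjusted p = 0.064) and, from limma, without wild-type array 1 (0.057) or knockout array 1 (0.054) or 3 (0.063), and with a replicate block (0.051). Thbs4 had a value of -0.05 (95% interval -0.20 to 0.11, limma adjusted p = 0.67). Sparc, a collagen-binding glycoprotein, had log2 values of 12.54 to 12.58 in wild-type and of 12.55 to 12.57 in knockout MEFs, with a difference of 0.00 and a 95% interval of -0.13 to 0.13.

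**Figure D2:**
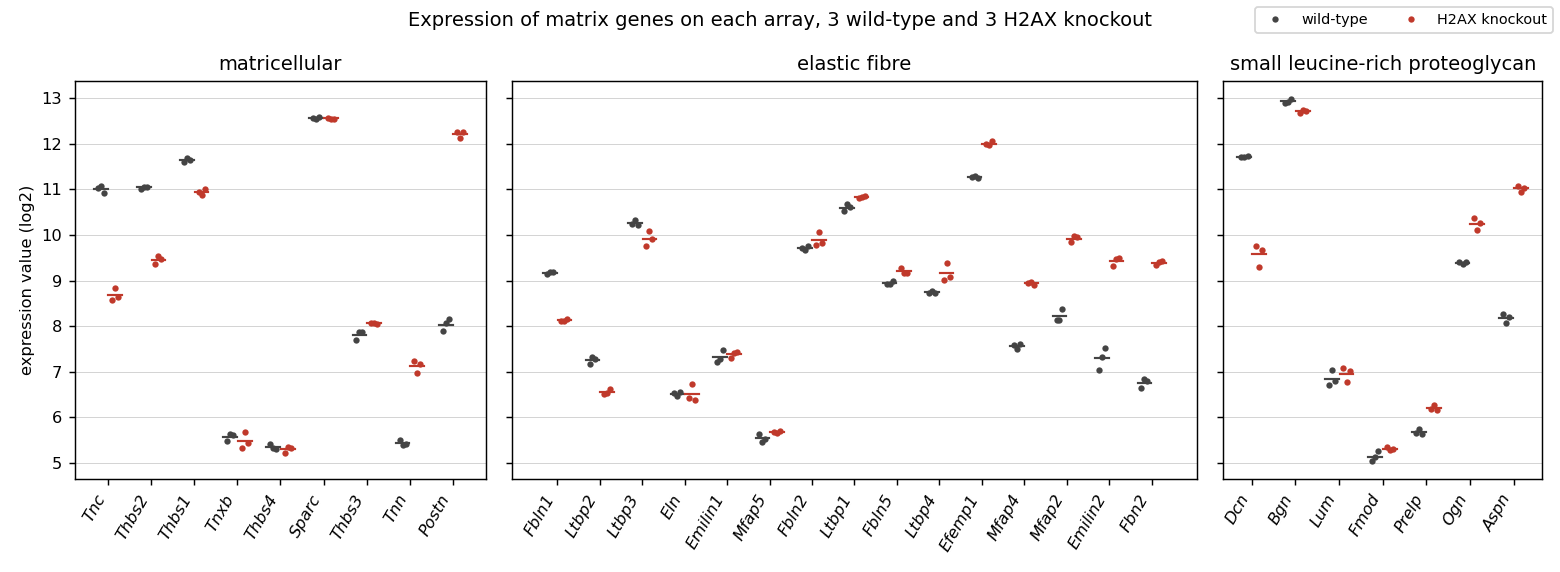
Log2 expression values are shown for each of the 3 wild-type (grey) and 3 H2AX knockout (red) arrays, for the matricellular, elastic fibre and small leucine-rich proteoglycan genes, with horizontal lines at the genotype means. Within a panel the genes are ordered by their log2 fold change, and values are compared between genotypes within a gene and not between genes. The 3 arrays of a genotype lie close together, and genes at the left and right ends of each panel have no overlap between genotypes.

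The sequence just before the transcription start of Thbs2 is given as that of a matricellular gene that fell over 2-fold. It holds the 250 bases before the start in RefSeq on assembly GRCm38.p6 (chr17:14694263-14694512, minus strand), 5′ to 3′ on the strand of the gene. Neither TATATAA nor GGAATG, the core letters bound by TEAD factors and given in capitals where present, occurs in it.
Thbs2: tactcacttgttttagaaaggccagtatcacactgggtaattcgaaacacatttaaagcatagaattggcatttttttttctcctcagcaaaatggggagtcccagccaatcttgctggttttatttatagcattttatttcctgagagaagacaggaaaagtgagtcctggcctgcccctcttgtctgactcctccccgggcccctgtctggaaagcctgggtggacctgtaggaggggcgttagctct

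Windows of 300 bases (250 before and 50 after the start) were found in the RefSeq table for 27 of the 37 measured genes, as 36 windows, among 32851 windows of 27025 genes. Searched on both strands, TATATAA was present in 5.56% of the 36 windows and in 3.24% of all windows. GGAATG was present in 16.7% and 14.7%, and the AP-1 motif TGANTCA in 8.33% and 7.81%. The CArG box, to which serum response factor binds, was in none of the 36 windows and in 1.63% of all windows. Among genes over 2-fold, GGAATG was in 3 of 8 windows of genes that were higher and in 1 of 7 windows of genes that were lower (Nid1). The 8 windows belonged to 5 genes and the 7 windows to 5 genes, and some windows of a gene overlapped. These motifs were chosen after the sequences had been seen, and a match describes letters and not binding.

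Elastic fibre genes moved in both directions in H2AX knockout MEFs. Of the 15 measured genes, 8 rose, 3 fell and 4 did not pass, and the median log2 fold change was 0.23. Of all genes, 18.4% rose and 15.0% fell. In either direction 73.3% of the class changed, beside 33.4% of all genes and 53.1% of genes at or above the median gene. The number of elastic fibre genes that rose was 7 when the variance was not moderated and with a replicate block. It was also 7 without wild-type array 1 or 2 or knockout array 3. Over 2-fold, 4 were higher (Fbn2, Emilin2, Mfap2 and Mfap4) and Fbln1 was lower, beside 2.12% and 3.18% of all genes. Fbn2 encodes fibrillin 2, the microfibril protein prominent in embryonic tissue. It had log2 values of 6.65, 6.84 and 6.80 in wild-type cells and of 9.34, 9.41 and 9.42 in knockout cells. No knockout array came near the wild-type range, and the log2 fold change was 2.63 (95% interval 2.47 to 2.79, limma adjusted p = 4.3e-09), a 6.18-fold rise. Fbn1, which encodes the other main fibrillin, was among the genes not analysed here.

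Of 3 genes for microfibril-associated proteins, 2 rose over 2-fold as well. Mfap2, whose product binds fibrillin, gave 8.13, 8.14 and 8.38 on wild-type and 9.85, 9.97 and 9.95 on knockout arrays. Its log2 fold change was 1.70 (limma adjusted p = 1.9e-07), and the arrays of the genotypes were fully separate. Mfap4, which encodes a microfibril-associated protein with a fibrinogen-like domain, had values of 7.58, 7.49 and 7.62 and of 8.95, 8.96 and 8.91. It rose by 1.37 on the log2 scale (SE 0.06, limma adjusted p = 1.4e-07), again without overlap. Mfap5, a close relative of Mfap2, had a log2 fold change of 0.14 with a 95% interval of -0.01 to 0.29 (limma adjusted p = 0.16).

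Emilins are glycoproteins at the interface of elastin and microfibrils. Emilin2 had log2 values of 7.04, 7.33 and 7.53 in wild-type and of 9.31, 9.48 and 9.50 in knockout MEFs. Although its wild-type arrays were the most widely spread among the 15 genes over 2-fold (SD 0.25), they stayed well below the knockout arrays. The log2 fold change was 2.13 (95% interval 1.87 to 2.39, limma adjusted p = 4.7e-07), or 4.38-fold. Emilin1 had overlapping arrays and a log2 fold change of 0.06 (95% interval -0.12 to 0.24, limma adjusted p = 0.63).

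Fibulins link elastin, microfibrils and basement membranes, and they differed in direction. Fbln1 had log2 values of 9.15, 9.18 and 9.18 in wild-type and of 8.11, 8.12 and 8.16 in knockout MEFs. All knockout values were lower, and the fall of 1.04 on the log2 scale (2.06-fold, limma adjusted p = 5.5e-07) lay just past the 2-fold limit, with a 95% interval of -1.17 to -0.91. Efemp1, which encodes fibulin 3, rose by 0.74 on the log2 scale (1.67-fold, limma adjusted p = 8.8e-06). Fbln5, which encodes an elastin-binding fibulin needed for elastic fibre assembly, had a log2 fold change of 0.25 (limma adjusted p = 0.012, and 0.050 without wild-type array 2), and Fbln2 one of 0.17 (95% interval -0.01 to 0.36, limma adjusted p = 0.15). Eln, which encodes elastin itself, had log2 values of 6.46 to 6.55 in wild-type and of 6.38 to 6.74 in knockout cells, and its 95% interval ran from -0.22 to 0.21 (limma adjusted p = 0.98).

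Latent TGF-beta binding proteins tether inactive TGF-beta to microfibrils, and all 4 of their genes passed, in both directions and under 2-fold. At this threshold 33.4% of all genes passed, and 53.1% of genes at or above the median gene. Ltbp2, the member that does not bind latent TGF-beta, fell by 0.70 on the log2 scale (limma adjusted p = 2.7e-05). Ltbp3 had a log2 fold change of -0.34 (limma adjusted p = 0.012), Ltbp4 of 0.42 (limma adjusted p = 0.0054) and Ltbp1 of 0.23 (limma adjusted p = 0.020). With the variance not moderated, the adjusted p was 0.086 for Ltbp3 and 0.068 for Ltbp4. From limma, it was 0.056 for Ltbp3 without wild-type array 2. For Ltbp1 it was 0.059 without wild-type array 1, 0.077 without knockout array 3 and 0.054 with a replicate block.

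**Figure D3:**
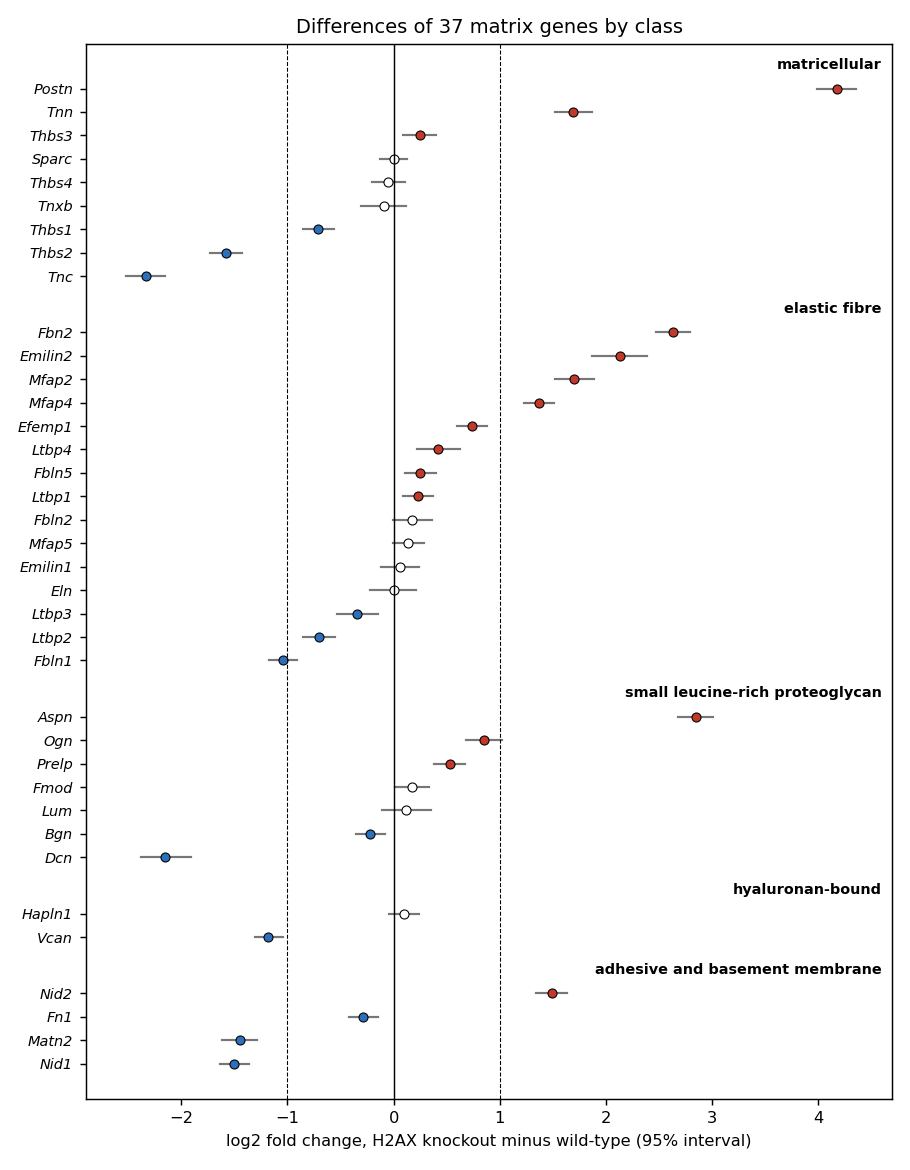
Log2 fold changes (H2AX knockout minus wild-type) of the 37 genes are shown by class, with 95% intervals from limma. Red points were higher and blue points lower at an adjusted p under 0.05, open points did not pass, and dashed lines mark a 2-fold change. Each class with more than 2 genes has points on both sides of 0. Of 15 elastic fibre genes 8 were higher, as were 18.4% of all genes.

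Small leucine-rich proteoglycans showed opposite changes in the genes for 2 closely related proteins, decorin and asporin. Of 7 genes, 3 rose, 2 fell and 2 did not pass, with a median log2 fold change of 0.17. The share that changed was 71.4%, beside 33.4% of all genes and 53.1% of genes at or above the median gene. Dcn encodes decorin, a collagen-binding proteoglycan that also sequesters TGF-beta. It had log2 values of 11.71, 11.72 and 11.73 in wild-type MEFs and of 9.75, 9.30 and 9.67 in H2AX knockout MEFs. The wild-type arrays were nearly equal, the knockout arrays were more spread (SD 0.24), and all were lower. The log2 fold change was -2.15 (95% interval -2.38 to -1.91, limma adjusted p = 2.5e-07), a 4.42-fold fall.

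Aspn encodes asporin, which shares the leucine-rich repeats of decorin but is not decorated with a glycosaminoglycan chain and competes with decorin for collagen. Its values were 8.27, 8.06 and 8.20 in wild-type and 11.08, 10.95 and 11.04 in knockout cells. Knockout arrays were higher throughout, and the log2 fold change was 2.85 (95% interval 2.68 to 3.01, limma adjusted p = 3.3e-09), a 7.20-fold rise. The 250 bases before the Aspn start (chr13:49544193-49544442, plus strand, GRCm38.p6) are shown for comparison with the upstream sequence of Thbs2, which fell, and held neither TATATAA nor GGAATG.
Aspn: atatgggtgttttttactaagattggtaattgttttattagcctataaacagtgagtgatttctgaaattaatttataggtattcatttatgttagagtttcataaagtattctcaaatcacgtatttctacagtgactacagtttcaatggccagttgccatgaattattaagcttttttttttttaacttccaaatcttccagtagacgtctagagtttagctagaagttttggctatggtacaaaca

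Ogn, which encodes osteoglycin, rose by 0.85 on the log2 scale (1.80-fold, limma adjusted p = 1.7e-05). Prelp, whose product anchors basement membranes to collagen, rose by 0.53 (limma adjusted p = 1.5e-04). Bgn encodes biglycan, the closest relative of decorin, and had a log2 fold change of -0.22 (SE 0.06, limma adjusted p = 0.019), which was lost without wild-type array 2 (adjusted p = 0.053) or 3 (0.067), or knockout array 1 (0.061) or 3 (0.068). Lum, which encodes lumican, and Fmod, which encodes fibromodulin, bind the same region of collagen fibrils and did not pass. Their log2 fold changes were 0.12 (95% interval -0.11 to 0.35, limma adjusted p = 0.45) and 0.17 (95% interval 0.01 to 0.33, limma adjusted p = 0.10), and without wild-type array 3 Fmod passed (limma adjusted p = 0.042).

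Several of these genes lie side by side in the genome, and neighbours did not always move together. In the RefSeq gene order, Ecm2, Aspn, Omd and Ogn follow each other on chromosome 13. Omd, which encodes osteomodulin, had log2 values of 5.28 ± 0.23 in wild-type and 6.69 ± 0.13 in knockout MEFs (SD, n = 3 each) and rose by 1.41 (limma adjusted p = 8.9e-06), so that Aspn, Omd and Ogn were all higher. Ecm2 at the edge of the group had a log2 fold change of 0.02 (limma adjusted p = 0.87), and Cenpp on its other side rose by 0.78 (limma adjusted p = 7.5e-04). On chromosome 10, Dcn is followed by Lum, Kera and Epyc. There Dcn fell, while Kera had a log2 fold change of -0.11 (limma adjusted p = 0.24) and Epyc one of -0.02 (limma adjusted p = 0.83). Kera (means of 4.84 in wild-type and 4.73 in knockout), Epyc (4.47 and 4.45) and Ecm2 (4.59 and 4.61) were low in both genotypes. These means lay below the 25th percentile of gene means (4.98), where a fall could hardly show. Lum had means of 6.84 and 6.96 and did not pass. On chromosome 1, Prelp rose and stood between Optc (0.17, limma adjusted p = 0.10) and Fmod, and Btg2 on the other side of Fmod rose by 0.40 (limma adjusted p = 0.0027).

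**Figure D4:**
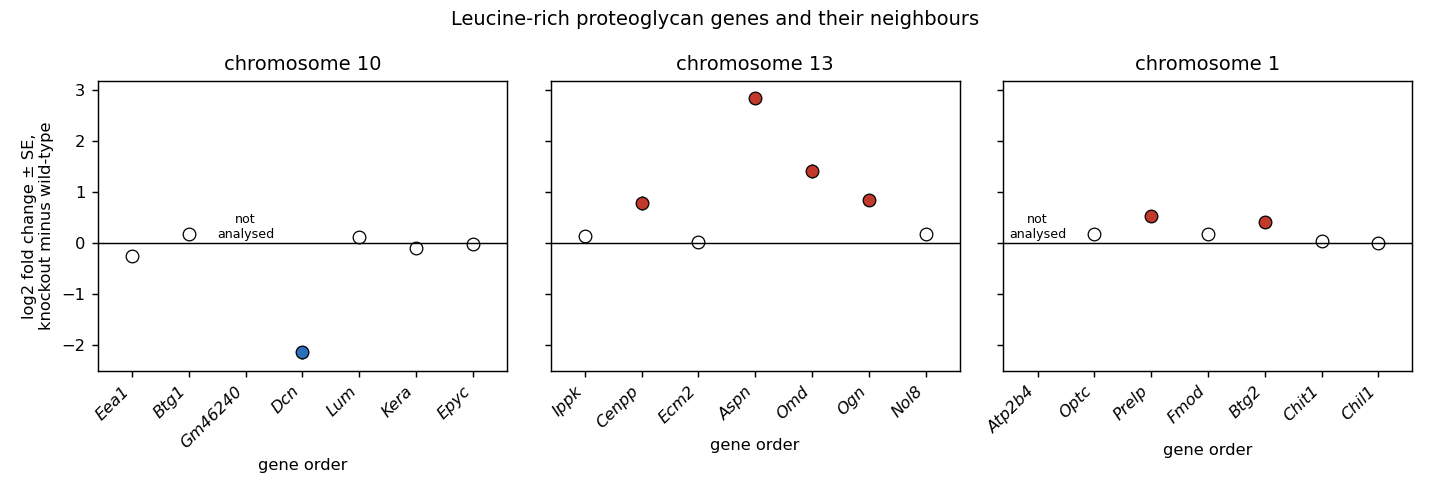
Log2 fold changes (H2AX knockout minus wild-type, with standard errors from limma, many smaller than the points) are shown for genes in their order along chromosomes 10, 13 and 1, without distances. Red genes were higher, blue genes lower and open genes did not pass at an adjusted p under 0.05. Aspn, Omd and Ogn rose side by side, whereas Dcn fell beside Lum, which did not pass.

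The hyaluronan-bound genes were Vcan and Hapln1. Vcan encodes versican, a large chondroitin sulfate proteoglycan that binds hyaluronan. It had log2 values of 10.95, 10.96 and 10.92 in wild-type and of 9.78, 9.81 and 9.71 in knockout MEFs. The genotypes were clearly separate, and the fall was by 1.18 on the log2 scale (2.26-fold, limma adjusted p = 3.1e-07). Hapln1, its neighbour on chromosome 13, encodes a link protein that stabilises the bond between versican and hyaluronan. Its values of 4.42 to 4.58 were low on all arrays, with a log2 fold change of 0.10 (95% interval -0.04 to 0.24, limma adjusted p = 0.26).

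All 4 adhesive and basement membrane genes passed, 1 higher and 3 lower, with a median log2 fold change of -0.87. At the same threshold 33.4% of all genes passed, and 53.1% of genes at or above the median gene. Both nidogens, which bridge laminin and collagen IV in basement membranes, changed over 2-fold in opposite directions. Nid1 gave log2 values of 11.52, 11.54 and 11.57 in wild-type MEFs and of 9.99, 10.10 and 10.04 in H2AX knockout MEFs. Nid2 gave 7.17, 7.27 and 7.19 in wild-type and 8.65, 8.78 and 8.66 in knockout MEFs. Neither gene had overlapping arrays, and the log2 fold changes were -1.5 for Nid1 (limma adjusted p = 6.1e-08) and 1.49 for Nid2 (limma adjusted p = 1.1e-07). These correspond to 2.83-fold and 2.80-fold. Levels of the 2 genes were read by different probes and were not set against each other, so that their ratio in the cells is not known.

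The 250 bases before the Nid1 start (chr13:13437352-13437601, plus strand, GRCm38.p6) are shown because Nid1 was the only gene lower over 2-fold whose window held GGAATG, given in capitals, among the 5 such genes with a window. The match starts 165 bases before the start.
Nid1: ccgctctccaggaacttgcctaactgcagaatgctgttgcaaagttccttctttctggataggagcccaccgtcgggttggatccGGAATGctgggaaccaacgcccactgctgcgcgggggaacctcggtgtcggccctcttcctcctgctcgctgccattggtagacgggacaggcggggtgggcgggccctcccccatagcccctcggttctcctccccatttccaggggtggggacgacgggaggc

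Matn2 encodes matrilin 2, an adaptor protein of filamentous networks. Its log2 values were 9.56, 9.68 and 9.66 in wild-type and 8.29, 8.07 and 8.18 in knockout cells. Knockout arrays were lower without overlap, and the log2 fold change was -1.45 (SE 0.07, limma adjusted p = 2.8e-07), or 2.73-fold. Fn1 encodes fibronectin, the main adhesive glycoprotein of cultured fibroblasts, and it fell by 0.29 on the log2 scale (1.22-fold, limma adjusted p = 0.0045).

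Genes that assemble, modify or bind these proteins were counted in 5 further lists. Of 25 enzymes that build chondroitin and dermatan sulfate, the chains carried by versican, decorin and biglycan, 3 rose, 12 fell and 10 did not pass, with a median log2 fold change of -0.19. Of all genes, 18.4% were higher and 15.0% lower. All 5 enzymes that changed over 2-fold were lower, as were 3.18% of all genes. Among genes at or above the median gene, 8.60% changed over 2-fold in either direction. Csgalnact1, which starts chondroitin sulfate chains, fell from 8.40 ± 0.09 to 6.06 ± 0.26 (log2, SD, n = 3 each, limma adjusted p = 2.7e-07). Chst11, a chondroitin 4-O-sulfotransferase, fell from 8.30 ± 0.04 to 6.26 ± 0.10 (limma adjusted p = 1.9e-08). The largest rises were 0.37 for Ugdh, which makes UDP-glucuronic acid (limma adjusted p = 0.0037), and 0.35 for Papss2, which makes the sulfate donor (limma adjusted p = 0.022, and 0.13 when the variance was not moderated).

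Of 16 genes of hyaluronan and versican turnover, 6 rose, 3 fell and 7 did not pass, with a median of 0.19. The share that changed was 56.2%, beside 33.4% of all genes and 53.1% of genes at or above the median gene. Hyal1, also listed, lacked a probe set naming it alone. Cemip, a hyaluronan-degrading factor, rose by 2.46 on the log2 scale (limma adjusted p = 2.8e-07), and Adamts5, a protease that cleaves versican and aggrecan, by 2.00 (limma adjusted p = 1.5e-07). Adamts9, another versican-cleaving protease, had a log2 fold change of -1.22 (limma adjusted p = 6.7e-06), and the hyaluronan synthase gene Has2 one of -0.37 (limma adjusted p = 0.029, and 0.17 when the variance was not moderated). In elastic fibre assembly and latent TGF-beta, 6 of 18 genes rose and 6 fell, with a median of -0.02. Here 66.7% changed, beside the same shares of 33.4% and 53.1%. Loxl2, Adamtsl6 and Fkbp10 were listed too but lacked a probe set naming them alone. The study itself lists Loxl2, a crosslinking enzyme gene, as lower in the knockout, and Lox as higher. The crosslinking enzyme gene Lox rose by 1.85 (limma adjusted p = 1.3e-08) and Tgfb3 by 0.87 (limma adjusted p = 9.7e-06), while Loxl3, also a crosslinking enzyme gene, had a value of -1.36 (limma adjusted p = 3.7e-07) and Bmp1, a protease that processes matrix precursors, one of -1.0 (limma adjusted p = 1.8e-06).

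Receptors for these glycoproteins, mostly integrin subunits, were higher for 7 of 26 genes and lower for 10, with 9 not passed and a median of -0.05. In either direction 65.4% changed, beside 33.4% of all genes and 53.1% of genes at or above the median gene. Itga11, a collagen receptor subunit, rose by 1.95 on the log2 scale (limma adjusted p = 2.1e-08), and Itga8, which binds fibronectin and tenascin C among others, by 1.63 (limma adjusted p = 1.7e-07). Itga6, a laminin receptor subunit, had a log2 fold change of -1.96 (limma adjusted p = 3.5e-08), and Itgb3, part of the vitronectin receptor, one of -1.27 (limma adjusted p = 1.8e-05). Among 55 further matrix genes, 17 rose, 6 fell and 32 did not pass, so that 41.8% changed beside 33.4% of all genes, with a median of 0.02 in both. Podn, which encodes the leucine-rich proteoglycan podocan, rose by 2.27 (limma adjusted p = 1.8e-08), and Srpx2 by 1.86 (limma adjusted p = 1.8e-06). Dpt, which encodes dermatopontin, a partner of decorin on collagen fibrils, had a log2 fold change of -3.11 (limma adjusted p = 9.1e-08), and Tgfbi, an integrin-binding matrix protein gene, one of -1.46 (limma adjusted p = 8.4e-08).

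**Figure D5:**
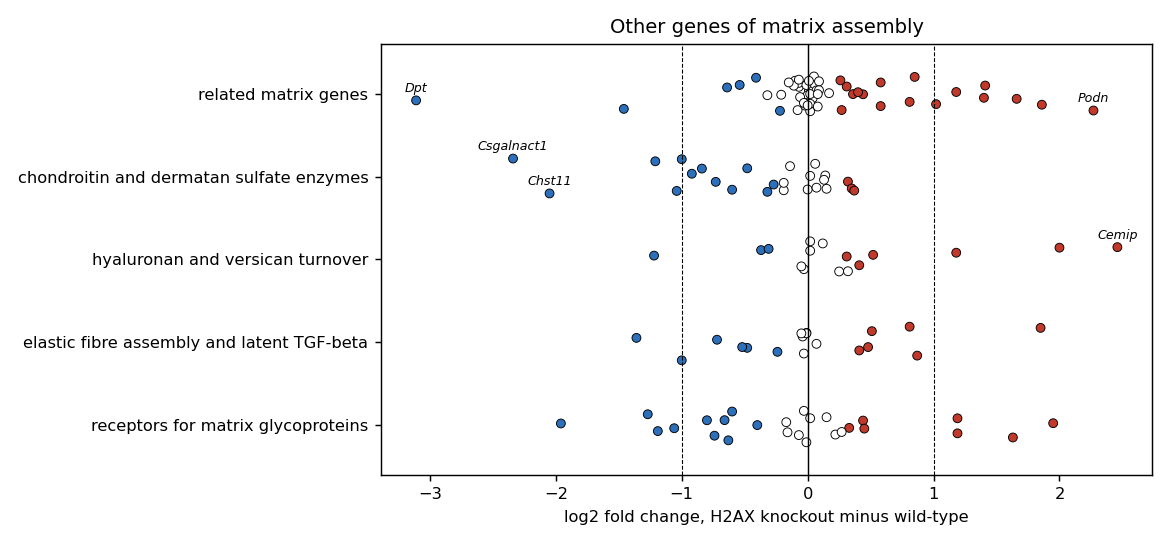
Each point is the log2 fold change (H2AX knockout minus wild-type) of a gene of the 5 further lists, spread vertically only to separate points. Red points were higher, blue points lower and open points not passed at an adjusted p under 0.05 from limma, and dashed lines mark a 2-fold change. In chondroitin and dermatan sulfate enzymes 12 of 25 genes were lower and 3 higher, beside 15.0% and 18.4% of all genes.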

How the data were processed

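RNA of 3 wild-type and 3 H2AX knockout MEF samples was measured on 6 arrays. By their methods, the authors made CHP files from the scan (CEL) files with Affymetrix Expression Console. They then loaded the CEL files into Partek (version 6.6) for normalization. Log2 values for 35556 probe sets were deposited. How background was corrected and arrays were normalized is not given in the sources used here, and normalized arrays do not show a difference in total RNA between genotypes. The methods name array version 2.0, but the identifiers are those of version 1.0. Of the probe sets, 21789 carried 1 gene symbol, 1621 several and 12146 were not listed. Of those with 1 symbol, 21698 were found in RefSeq (GRCm38.p6) by gene identifier and took its symbol, whether or not that differed. No genome build comes with these values, so promoter coordinates are those of RefSeq. Some upstream sequences are not reported here. Where several probe sets named a gene (999 genes), that with the highest mean was taken.

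Genotypes were compared with limma (version 3.58.1, R version 4.3.3; lmFit, eBayes, no covariate) on the deposited log2 values, with Benjamini-Hochberg adjustment over 19938 genes, at an adjusted p under 0.05 and, where stated, a fold change over 2. The script was tested on simulated data. Full values are given for genes over 2-fold, and further lists are named by their 2 largest rises and falls. Omd, Ecm2, Cenpp, Kera, Epyc, Optc and Btg2 were named for their position and single genes of the marker lists as examples, after values were seen. The matrix genes, lists and tests were chosen with earlier results of these data known. Hapln3 is in 2 of the further lists. The alternatives tried were a replicate block, each array left out in turn, the one-way ANOVA of the methods, another variance prior, quantile normalization, median centring, leaving out the 50% lowest genes, averaging over probe sets, all probe sets, and a fold of 1.5. Deviations from the genotype mean correlated at -0.25, -0.15 and 0.07 between same-numbered arrays, and at -0.19 to 0.29 between other pairs across genotypes. These deviations sum to 0 over the 3 arrays of a genotype. The correlations therefore cannot decide whether replicate numbers pair the arrays. The number of arrays limits the precision.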

Additional observations from a re-analysis of the deposited data

How the results depend on the processing

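The 15 genes over 2-fold kept their direction and their side of the threshold in all 209 values computed under the alternatives. Over all 37 genes, 486 of 511 values kept both. In 17 values a call was lost, for Thbs3, Fbln5, Ltbp1, Ltbp3, Ltbp4 and Bgn, and in 1, Fmod, a call was gained. With the replicate number as a block, 13 genes were higher and 11 lower (Thbs3, Ltbp1 and Bgn were lost, with adjusted p of 0.051, 0.054 and 0.057), and over 2-fold 8 and 7. Whether the numbers pair the arrays is not known. Small leucine-rich proteoglycans then had 1 lower gene, as Bgn was lost, and 1 to 2 when an array was left out (1 without wild-type array 2 or 3, or knockout array 1 or 3). Without the 50% of genes that had the lowest means, there were 11 higher genes among the further matrix genes, since fewer were tested. With a fold of 1.5, 10 genes were higher and 9 lower. Values near 0 changed sign for Sparc (-0.0012 with median centring, -0.0096 without wild-type array 2, -0.0041 without knockout array 1, with a range of -0.0096 to 0.01 over arrays left out). They did so for Eln too (0.0072 and 0.014 without wild-type array 1 or 3, 0.044 and 0.061 without knockout array 1 or 3, with a range of -0.12 to 0.061). Quantile normalization and median centring moved the median of all genes by 0.0031 and -0.0021.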
